A study of Mus musculus with 12 samples.

Results

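Chemokines are small secreted proteins that attract leukocytes, and their receptors are G protein-coupled receptors on the cells that respond. The genes described here are all entries of the deposited count table whose name begins with Ccl, Cxcl, Ccr or Cxcr followed by a number, or with Cx3c. There were 55 such entries of 31057 genes in the table, under 54 names, since Ccl25 is listed under 2 gene IDs. They were chosen by name, not by their counts. The table held 33 of them at counts high enough for testing, of which 25 were well measured, with at least 30 counts in every library of at least 1 group, and 8 had low counts. The other 22 were not tested, and no library had more than 15 counts of any of them.

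The 12 RNA-seq libraries came from the tibialis anterior, a muscle of the front of the lower leg, of C57BL/6 mice aged 7 weeks, with 3 libraries in each of 4 groups. Mice called WT carried flox/flox alleles of H2A-Z.1 (H2afz) and H2A-Z.2 (H2afv), the genes of the histone variant H2A.Z, and no HSA Cre. Mice called dKO carried HSA Cre and were H2A-Z.1-/- as well as H2A-Z.2-/-. The HSA promoter, from human skeletal actin, drives Cre in muscle fibres, and the blood vessels, connective tissue, nerve and leukocytes of a dKO muscle are not its targets. Denervated muscle came from the left leg 48 h after its sciatic nerve was cut under ketamine and xylazine anaesthesia, and innervated muscle from the other leg, which was not operated on. The loss of the nerve therefore cannot be told apart from the surgery or the side of the body. The comparisons ask which chemokine genes responded to denervation in each genotype, which differed between genotypes in either leg, and whether the responses differed.

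Chemokines are named by the spacing of their first cysteines (CC, CXC, CX3C), and most receptors bind several ligands. In damaged skeletal muscle the family is known for bringing in monocytes through the receptor Ccr2 and neutrophils through Cxcr2, and Cxcl12 is known for acting on leukocytes and muscle precursor cells through Cxcr4. Many inflammatory chemokine genes are known targets of NF-kB and interferon signalling.

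Levels are given as raw counts or as CPM (counts scaled by sequencing depth and edgeR's TMM normalization factor), with mean ± SD over n = 3 libraries. Changes are log2 ratios with their standard error (SE) from edgeR's quasi-likelihood test, and adjusted p-values are Benjamini-Hochberg values over all 17201 genes tested. Rose, fell and called refer to an adjusted p below 0.05. The labels call the libraries biological replicates and do not say which animal each came from, so p-values measure the spread between these samples. In bulk muscle RNA, fewer cells of a type and less RNA per cell cannot be told apart.

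Libraries held 55668606 to 87753152 counts, of which the chemokine genes took 0.0182% to 0.0227%. Of the targeted genes, H2afv was at 22.1 ± 3.17 and 20.7 ± 1.56 CPM in WT innervated and denervated legs and at 5.67 ± 0.534 and 5.00 ± 0.350 CPM in dKO legs, and it fell in dKO in both. H2afz was at 13.5 ± 2.38 and 9.72 ± 1.92 CPM in WT and at 8.39 ± 1.60 and 6.56 ± 1.11 CPM in dKO, with log2 differences of −0.69 (adjusted p = 0.175 by edgeR) and −0.57 (adjusted p = 0.287). The 5 markers of muscle fibres (Acta1, Ckm, Myh4, Ttn, Mb) summed to 168608 to 287729 CPM in every library, as the tissue label says. An earlier analysis of these data had set apart the libraries of dKO innervated replicate 1 and WT denervated replicate 2 by GC content, and results that rest on either are given with and without it.

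In resting WT muscle the RNA of this family was led by Cxcl12, a homeostatic chemokine of stromal cells. On the scale of the authors' normalized signal per kb of gene length, which allows genes to be compared, Cxcl12 was at 2475 ± 81.3, Cxcl14, a chemokine of epithelia and muscle, at 1356 ± 132, and Cxcr7 (Ackr3), the scavenging receptor of Cxcl12, at 774 ± 28. The ranges of these genes over the 3 libraries did not overlap. Ccl9 followed at 695 ± 128, Ccl11 at 606 ± 135, Ccl6 at 396 ± 41.4 and Cx3cl1 at 273 ± 53.5, and Ccl9 overlapped Cxcr7 and Ccl11 in range. Cxcr4, the signalling receptor of Cxcl12, was at 174 ± 21.4. At the low end stood Ccl7 at 10.4 ± 5.27, Cxcl10 at 6.91 ± 7.96 and Cxcr6 at 1.28 ± 0.663. These genes count as well measured only through denervated libraries, and had 1 to 13 counts in WT innervated ones. In denervated WT muscle, per kb, Cxcl10 was at 512 ± 224, Ccl7 at 372 ± 51.6 and Ccl2 at 346 ± 27.3, with ranges that overlapped one another.

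**Figure D1:**
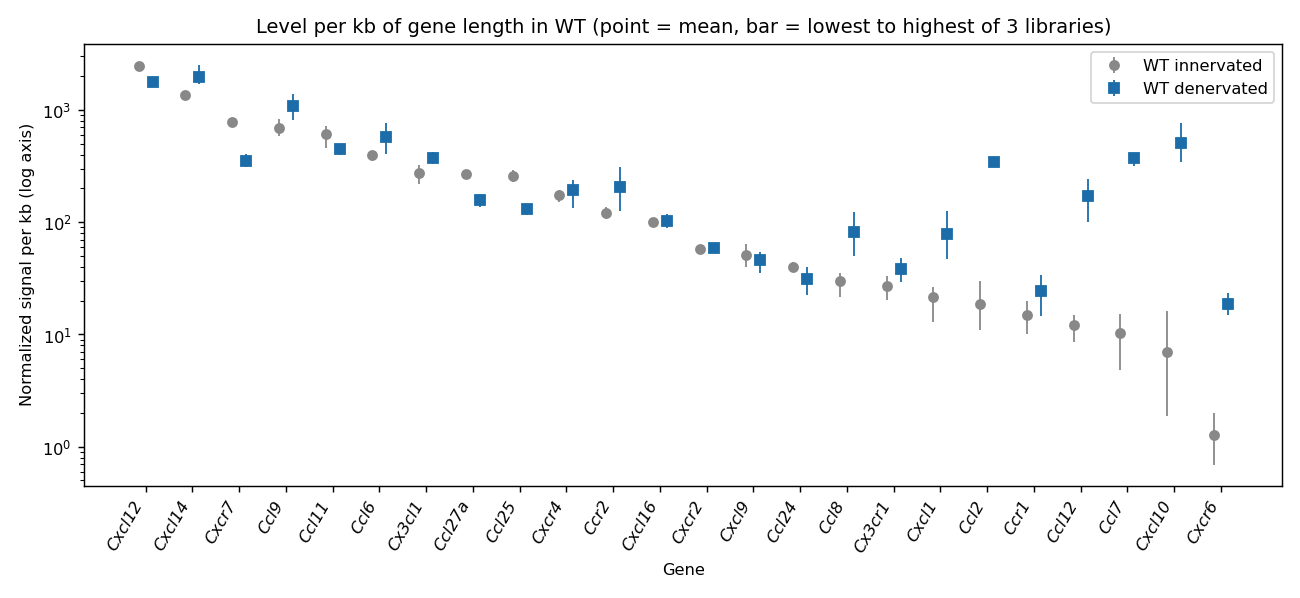
Level of 24 well-measured genes in WT muscle, as the authors' normalized signal per kb on a log axis, with points for means and bars from the lowest to the highest of 3 libraries, in the order of the innervated legs. Cxcl12 led at 2475 in innervated legs, and Cxcl10, Ccl7 and Ccl2 moved from 6.91, 10.4 and 18.5 to 512, 372 and 346. In WT innervated libraries Cxcl10, Ccl7 and Ccl2 had 1 to 22 counts.

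After denervation in WT, 16 of the 33 tested genes were called, 11 up and 5 down, which is 48.5% against 44% of all genes tested. Genes that rose made up 33.3% here and 23.1% of all genes tested, and genes that fell 15.2% and 21%. A rise of at least 2-fold was called for 7 of the 33, against 5.7% of all genes. In dKO, 11 of the 33 were called, 7 up and 4 down, which is 33.3% against 42% of all genes tested, with 21.9% of all genes up and 20.2% down. Of these, 6 rose by at least 2-fold, against 5.62% of all genes. The median log2 change of the 33 was 0.54 in WT and 0.15 in dKO, beside −0.0028 and −0.026 over all genes. These figures support nothing by themselves, because 6 of the 33 (Ccl7, Ccl12, Ccl19, Cxcl5, Cxcl10 and Cxcr6) passed the count filter only through denervated groups. Over the other 27, 12 were called in WT, 7 up and 5 down, and 8 in dKO, 4 up and 4 down. These 27 were set apart by whole groups and still hold Cxcl2. That gene reached 10 counts only in denervated libraries and was called in neither genotype. The legs did not overlap for 14 of the 33 in WT and 12 in dKO, against 51.5% and 52.6% of all genes tested. With replicate number as a block 18 were called in WT and 12 in dKO (49.4% and 47.6% of all genes tested), and by DESeq2 17 and 11 (38.6% and 38.2%). All 7 genes that rose in dKO and all 4 that fell there were called in the same direction in WT. The matching share over all genes was not counted. Ccl7, Ccl12 and Cxcl10, among the 7, passed the filter only through denervated groups, so this agreement supports nothing by itself.

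**Figure D2:**
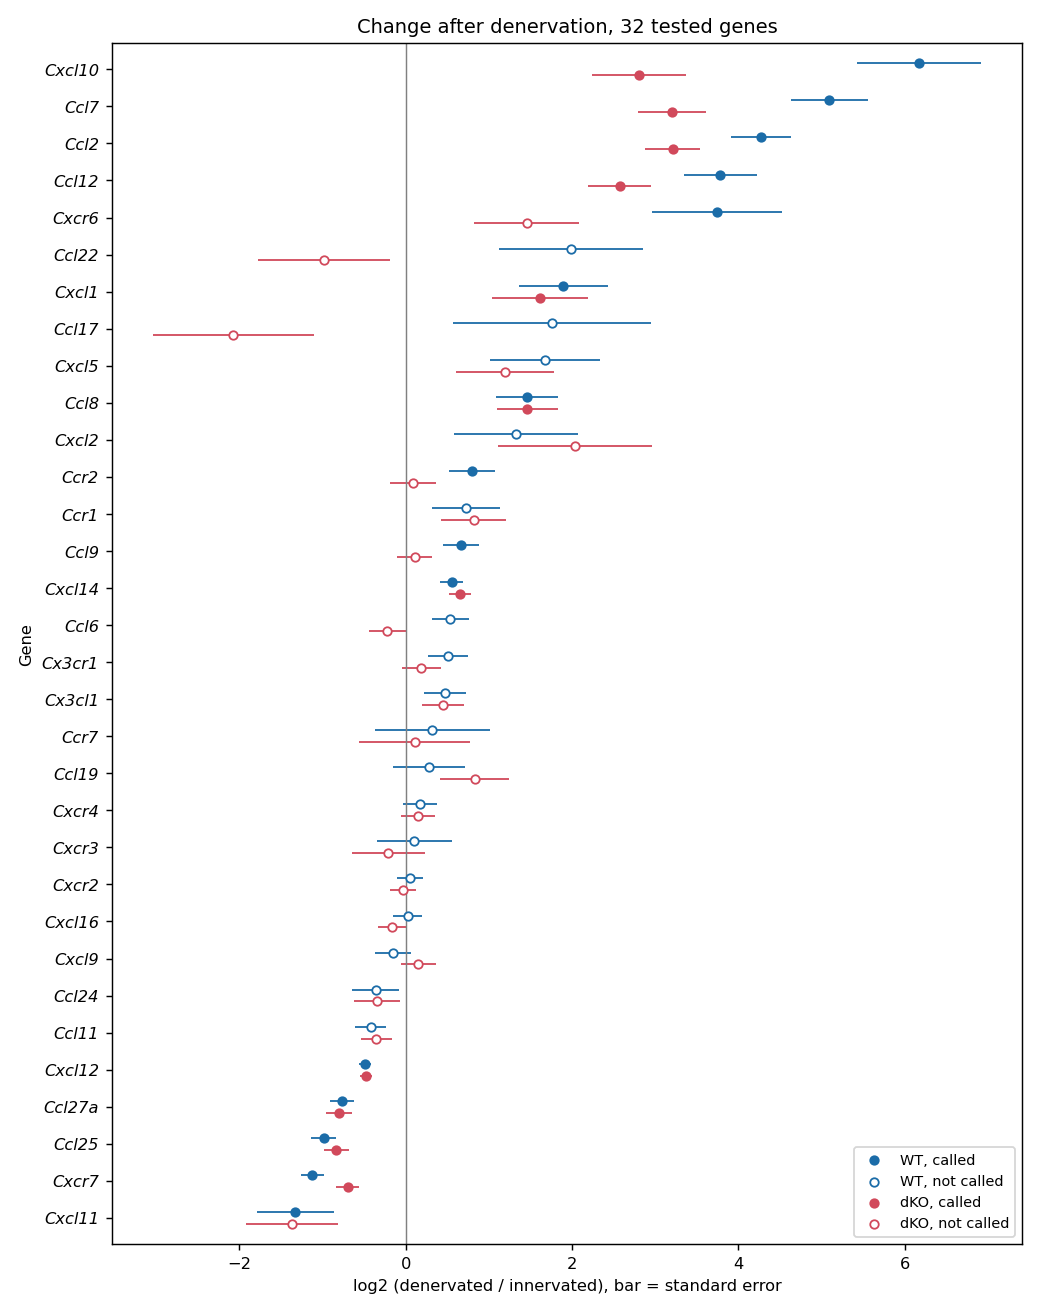
Log2 change from innervated to denervated legs of 32 tested genes, with bars of 1 standard error, blue for WT and red for dKO, filled where the adjusted p was below 0.05. The changes run from 6.17 for Cxcl10 to −1.32 for Cxcl11 in WT, and 7 genes are filled to the right of 0 in both genotypes.

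The CC ligands of Ccr2, which draw monocytes out of blood, included Ccl2, Ccl7 and Ccl12. These and their neighbour on the chromosome, Ccl8, were called up in both genotypes. Ccl7 and Ccl12 passed the count filter only through denervated groups, so the count of 4 is no support by itself. Ccl2, also known as monocyte chemoattractant protein, had 11, 22 and 13 counts in WT innervated and 358, 414 and 410 counts in WT denervated libraries 1 to 3. In dKO it had 45, 21 and 24 counts in innervated and 364, 197 and 403 counts in denervated libraries. Every denervated library lay above every innervated library of its genotype. Ccl2 rose by 4.27 ± 0.36 (log2 ± SE, adjusted p = 1.07e-06 by edgeR) in WT and by 3.21 ± 0.33 (adjusted p = 5.55e-06) in dKO.

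Ccl7, which binds Ccr1, Ccr2 and Ccr3, had 13, 3 and 8 counts in WT innervated and 352, 346 and 362 counts in WT denervated libraries. The dKO libraries held 31, 8 and 17 counts in innervated and 147, 135 and 321 counts in denervated libraries. The groups did not overlap within a genotype, and dKO denervated replicate 3 had more than the other dKO denervated libraries. Ccl7 rose by 5.09 ± 0.46 in WT (adjusted p = 2.23e-06 by edgeR) and by 3.20 ± 0.41 in dKO (adjusted p = 3.99e-05). Ccl12, a mouse Ccr2 ligand, went from 0.0872 ± 0.0224 to 1.23 ± 0.502 CPM in WT and from 0.220 ± 0.0925 to 1.31 ± 0.326 CPM in dKO. These are log2 rises of 3.78 ± 0.44 and 2.57 ± 0.38 (adjusted p = 1.58e-05 and 0.000125 by edgeR). Ccl8 rose least of the 4, from 0.218 ± 0.0534 to 0.597 ± 0.275 CPM in WT and from 0.246 ± 0.0459 to 0.680 ± 0.184 CPM in dKO, which is 1.46 ± 0.37 and 1.46 ± 0.36 on the log2 scale (adjusted p = 0.00601 and 0.00568 by edgeR). Neither gene overlapped between legs in either genotype.

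**Figure D3:**
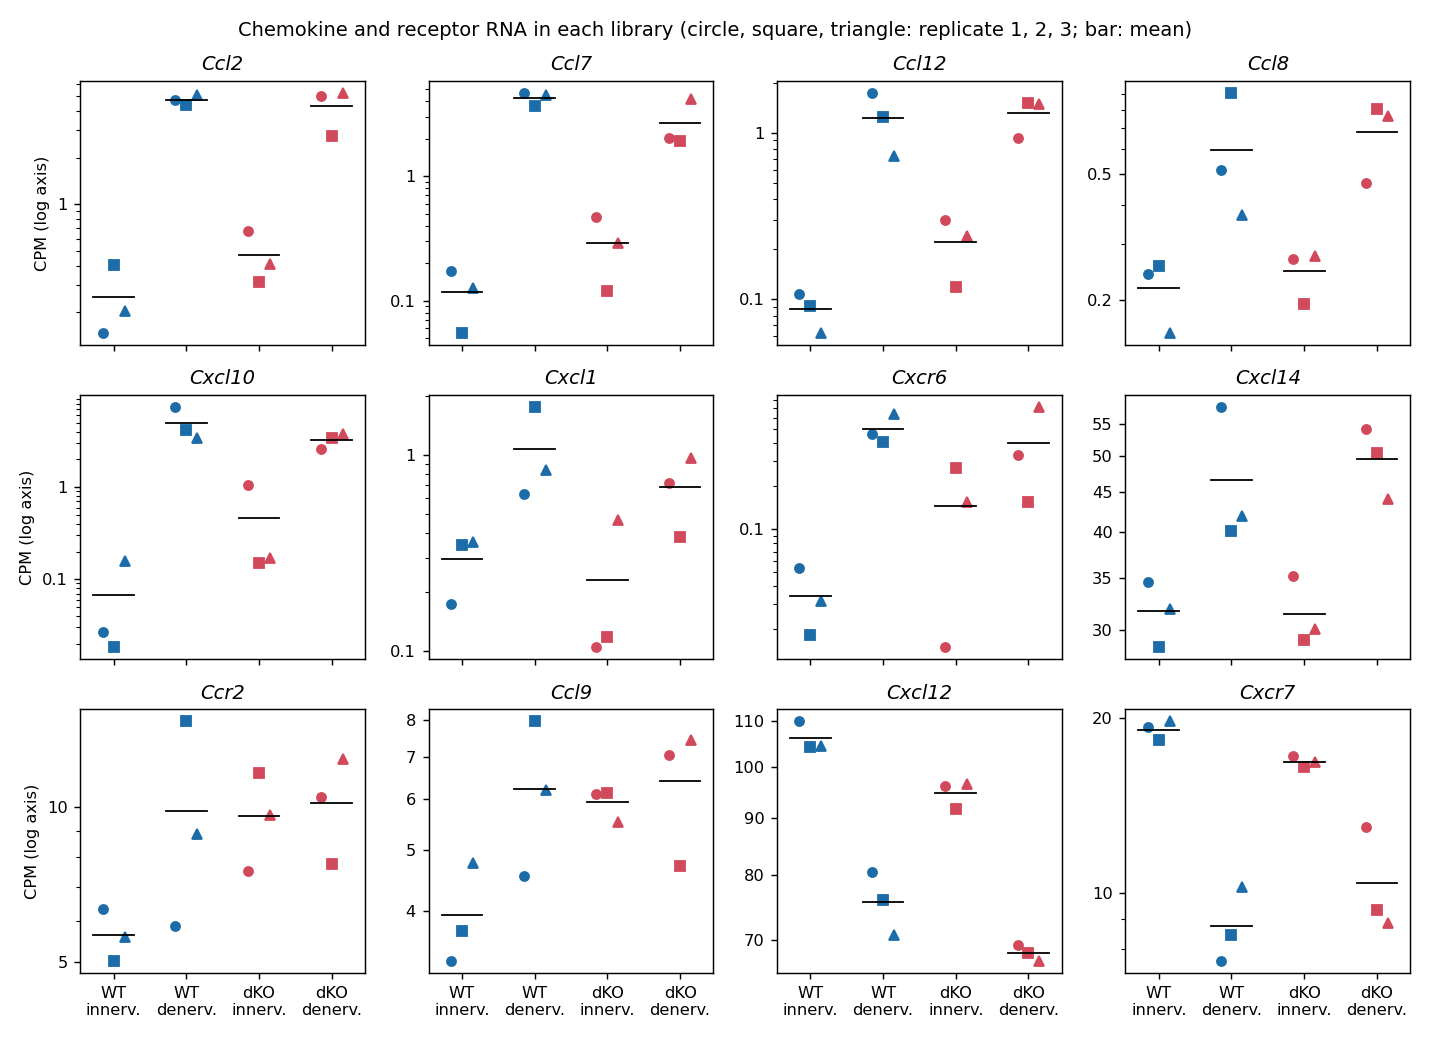
CPM on a log axis of 12 called genes in each library, blue for WT and red for dKO, with circles, squares and triangles for replicates 1, 2 and 3 and bars for means. Denervated libraries lie above innervated ones for Ccl2, Ccl7, Ccl12, Ccl8, Cxcl10 and Cxcl14 and below them for Cxcl12 and Cxcr7 in both genotypes.

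Ccr2 itself, the receptor of Ccl2, Ccl7 and Ccl12 on inflammatory monocytes, had a smaller change, called in WT. It had 475, 274 and 356 counts in WT innervated and 445, 1397 and 719 counts in WT denervated libraries. dKO libraries had 500, 783 and 560 counts in innervated and 759, 551 and 955 counts in denervated libraries. The WT groups overlapped, with replicate 2 of the denervated legs far above the others at 14.7 CPM. Ccr2 rose by 0.80 ± 0.28 in WT (adjusted p = 0.0336 by edgeR), and the change in dKO was 0.09 ± 0.27 (adjusted p = 0.825). The call rests on single libraries. Without WT denervated replicate 2 the change was 0.39 (adjusted p = 0.192 by edgeR), without innervated replicate 2 it was 0.72 (adjusted p = 0.106) and without innervated replicate 3 it was 0.79 (adjusted p = 0.0797). With replicate number as a block it was 0.70 (adjusted p = 0.0596 by edgeR), and with upper-quartile scaling 0.72 (adjusted p = 0.0541), neither a call.

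Macrophage and monocyte markers were measured beside these genes. The 8 markers in the table (Emr1, Cd68, Csf1r, Itgam, Lyz2, Ly6c2, Mrc1 and Cd163) summed to 126 to 149 CPM in WT innervated, 140 to 178 in WT denervated, 144 to 163 in dKO innervated and 150 to 191 in dKO denervated libraries, and the highest WT sum was that of denervated replicate 2. Of the 8, Cd68 (2.01) and Itgam (0.70) rose and Cd163 (−0.73) fell in WT, and Cd68 (2.31) rose and Cd163 (−0.37) fell in dKO. None of the 8 was at 0. The part of these cells in the chemokine changes was not tested.

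The CC ligands of Ccr1 and that receptor gave small changes. Ccl9, an attractant of Ccr1-bearing myeloid cells, had 249, 203 and 303 counts in WT innervated and 343, 758 and 503 counts in WT denervated libraries. In dKO it had 408, 413 and 321 counts in innervated and 512, 334 and 574 counts in denervated libraries. The legs overlapped in both genotypes, and Ccl9 rose by 0.67 ± 0.21 in WT (adjusted p = 0.0219 by edgeR), with 0.11 ± 0.21 in dKO (adjusted p = 0.712). Its neighbour Ccl6, a related myeloid chemokine, had a log2 difference between legs of 0.54 ± 0.22 in WT (adjusted p = 0.0692 by edgeR) and of −0.22 ± 0.22 in dKO (adjusted p = 0.456). The Ccl9 call ended without WT denervated replicate 2 (0.46, adjusted p = 0.0979 by edgeR) and without innervated replicate 1 (0.56, adjusted p = 0.0868) or 2 (0.63, adjusted p = 0.068).

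Ccr1, the receptor of Ccl6 and Ccl9, went from 0.606 ± 0.199 to 0.989 ± 0.408 CPM in WT and from 0.836 ± 0.192 to 1.48 ± 0.729 CPM in dKO, with log2 changes of 0.73 ± 0.41 and 0.82 ± 0.39 that were not called (adjusted p = 0.173 and 0.112 by edgeR). Ccl3, Ccl4 and Ccl5, inflammatory CC ligands, had 0 to 13 counts in any library and were not tested.

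The Ccr3 ligands, which draw eosinophils, were not called. Ccl11 (eotaxin) was at 9.34 ± 2.10 CPM in WT innervated and 6.99 ± 0.691 CPM in WT denervated legs, with log2 changes of −0.42 ± 0.19 in WT (adjusted p = 0.0878 by edgeR) and −0.35 ± 0.19 in dKO (adjusted p = 0.15). Some alternatives called Ccl11 lower in WT. These were upper-quartile scaling (−0.50, adjusted p = 0.0411 by edgeR) and no filter (−0.42, adjusted p = 0.0293). So did leaving out WT innervated replicate 2 (−0.58, adjusted p = 0.0243) or dKO innervated replicate 3 (−0.42, adjusted p = 0.0385). Ccl24 was at 0.735 ± 0.0634 and 0.570 ± 0.158 CPM, with changes of −0.36 ± 0.28 and −0.34 ± 0.28. Ccl11 stands apart from its neighbours on the chromosome. Ccl2, Ccl7, Ccl11, Ccl12 and Ccl8 follow each other in this order on the plus strand of chromosome 11, with Ccl1 last and on the other strand, between 82035571 and 82305690 of GRCm38 (GENCODE M21). The 4 that rose enclose Ccl11, which was not called in either genotype, and Ccl1 had 0 to 2 counts.

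**Figure D4:**
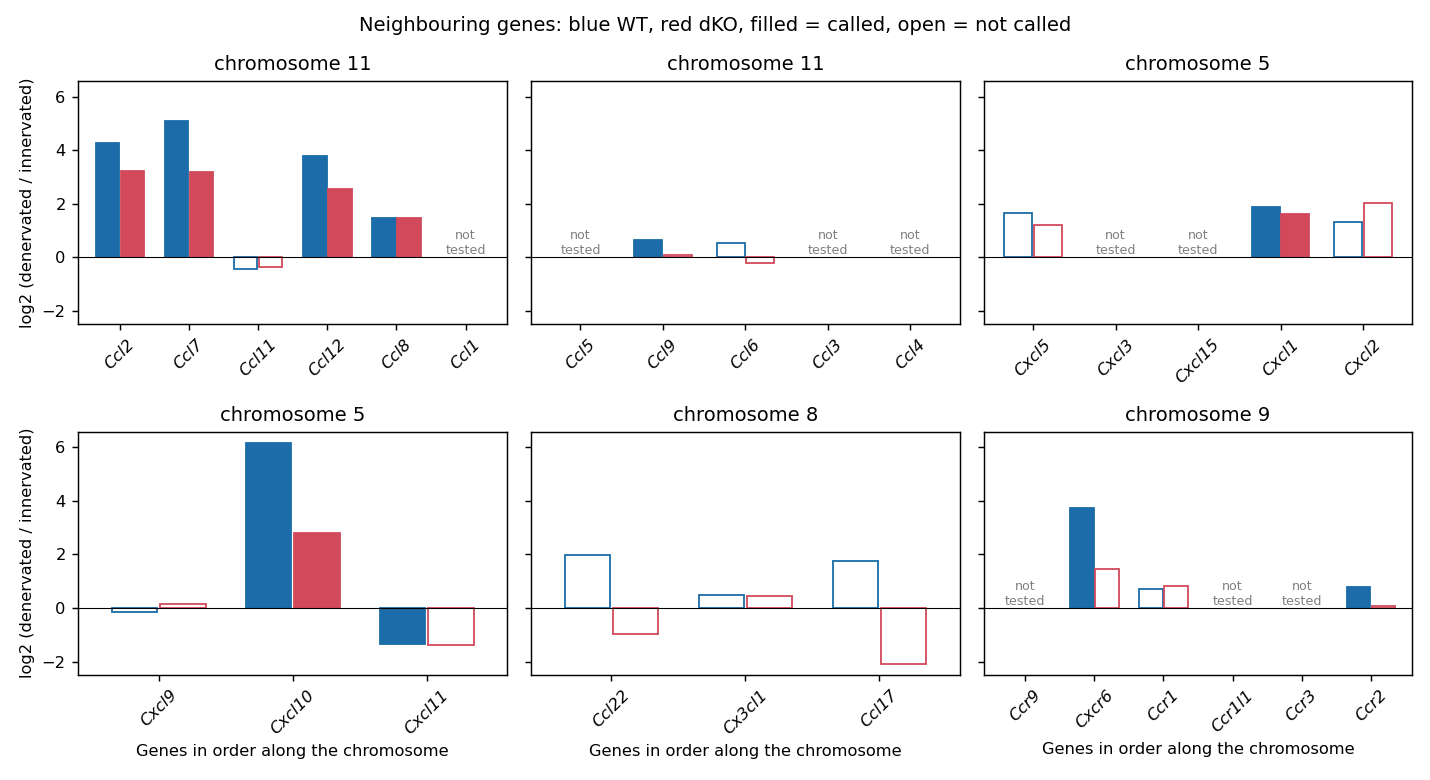
Log2 change after denervation of genes that lie within 200 kb of the next one, in chromosome order and not to scale, blue for WT, red for dKO, filled where called. In the first panel Ccl11 at −0.42 and −0.35 stands between Ccl7 at 5.09 and 3.20 and Ccl12 at 3.78 and 2.57, and in the fourth Cxcl10 at 6.17 and 2.80 stands between Cxcl9 and Cxcl11.

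The CXC ligands of Cxcr3, the receptor of activated T cells, went different ways. Cxcl10, first known as interferon-inducible protein, had 2, 1 and 10 counts in WT innervated and 556, 400 and 274 counts in WT denervated libraries. In dKO it had 71, 10 and 10 counts in innervated and 188, 243 and 294 counts in denervated libraries. The legs did not overlap in either genotype, and dKO innervated replicate 1 stood well above the other innervated libraries. Cxcl10 rose by 6.17 ± 0.75 in WT (adjusted p = 2.41e-05 by edgeR) and by 2.80 ± 0.57 in dKO (adjusted p = 0.00142). Without dKO innervated replicate 1 the rise in dKO was 4.35 (adjusted p = 3.96e-05 by edgeR), and without WT innervated replicate 3 the rise in WT was 7.64 (adjusted p = 9.46e-05).

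Cxcl9, induced by interferon gamma elsewhere, was at 2.03 ± 0.490 and 1.81 ± 0.409 CPM in WT innervated and denervated legs and at 2.07 ± 0.174 and 2.31 ± 0.435 CPM in dKO. Its log2 changes were −0.16 (95% interval −0.62 to 0.31) and 0.15 (−0.31 to 0.62), with adjusted p = 0.602 for each by edgeR. Cxcl11, which GENCODE lists as a polymorphic pseudogene, had 13 to 53 counts in WT innervated and 10 to 16 in WT denervated libraries, and it fell by 1.32 ± 0.47 on the log2 scale in WT (adjusted p = 0.0345 by edgeR). The 53 counts came from 1 library, WT innervated replicate 1, and without it the change was −0.60 (adjusted p = 0.324 by edgeR), which is no call. Leaving out any 1 of the WT denervated libraries also ended the call, at −1.21 to −1.47 (adjusted p = 0.0528 to 0.0936 by edgeR). In dKO the Cxcl11 change was −1.37 ± 0.55 (adjusted p = 0.0622 by edgeR). Cxcr3, their receptor, had 5 to 23 counts per library, with changes of 0.11 ± 0.45 in WT and −0.21 ± 0.44 in dKO.

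Cxcl9, Cxcl10 and Cxcl11 lie side by side on the minus strand of chromosome 5, from 92321347 to 92365485 (GRCm38), and exons of Art3 overlap Cxcl10 on the other strand. The library kit marks strand, and whether the counting used it is not given in the sources used here. Art3 went from 134 to 82.2 CPM in WT and from 129 to 68.5 CPM in dKO, and so fell (−0.71 and −0.92) where Cxcl10 rose.

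The promoters of Cxcl10 and Cxcl9 are shown because the genes are neighbours with the same class of inducers and unlike changes, and those of Cxcl1, Ccl12 and Cxcr7 as examples of a CXC ligand and a CC ligand that rose and a receptor that fell. Each is 300 bases, 250 before to 50 after the start, from RefSeq (GRCm38.p6), 5′ to 3′ along the gene. Capitals mark matches on either strand to the NF-kB core GGGANNTTC, the interferon-stimulated response element core GAAANNGAA, the AP-1 site TGANTCA and the STAT site TTCNNNGAA, which were found in 3.94%, 8.56%, 7.81% and 8.3% of 32851 promoters of this length.
Cxcl10, chr5:92348840-92349139, minus strand: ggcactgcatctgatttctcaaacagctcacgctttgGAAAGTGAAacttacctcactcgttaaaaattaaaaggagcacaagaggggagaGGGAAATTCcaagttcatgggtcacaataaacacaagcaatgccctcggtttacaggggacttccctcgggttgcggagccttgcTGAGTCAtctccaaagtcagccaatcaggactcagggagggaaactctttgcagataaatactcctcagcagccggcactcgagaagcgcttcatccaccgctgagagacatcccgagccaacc
Cxcl9, chr5:92328030-92328329, minus strand: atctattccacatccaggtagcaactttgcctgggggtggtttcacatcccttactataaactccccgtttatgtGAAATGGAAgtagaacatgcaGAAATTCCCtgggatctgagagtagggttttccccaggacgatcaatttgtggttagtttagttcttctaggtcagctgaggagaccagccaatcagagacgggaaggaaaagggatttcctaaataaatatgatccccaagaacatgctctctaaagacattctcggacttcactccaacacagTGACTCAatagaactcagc
Cxcl1, chr5:90890995-90891294, plus strand: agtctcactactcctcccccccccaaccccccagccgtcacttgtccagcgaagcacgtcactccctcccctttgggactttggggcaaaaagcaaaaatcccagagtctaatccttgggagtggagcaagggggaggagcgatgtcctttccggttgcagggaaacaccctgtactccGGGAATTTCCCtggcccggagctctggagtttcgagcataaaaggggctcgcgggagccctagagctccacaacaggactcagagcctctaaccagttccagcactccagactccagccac
Ccl12, chr11:82101595-82101894, plus strand: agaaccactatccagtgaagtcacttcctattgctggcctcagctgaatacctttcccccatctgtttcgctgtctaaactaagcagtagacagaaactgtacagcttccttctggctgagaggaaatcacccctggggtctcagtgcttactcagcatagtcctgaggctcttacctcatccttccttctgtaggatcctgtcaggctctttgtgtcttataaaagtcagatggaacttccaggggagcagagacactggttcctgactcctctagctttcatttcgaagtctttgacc
Cxcr7 (Ackr3), chr1:90203730-90204029, plus strand: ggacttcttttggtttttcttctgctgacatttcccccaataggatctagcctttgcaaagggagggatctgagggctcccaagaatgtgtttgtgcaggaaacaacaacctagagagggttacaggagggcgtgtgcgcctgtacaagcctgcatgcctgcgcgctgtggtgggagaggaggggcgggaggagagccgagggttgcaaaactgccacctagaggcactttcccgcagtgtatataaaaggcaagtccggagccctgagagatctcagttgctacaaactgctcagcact

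In the Cxcl10 promoter the response element core began 213 bases, the NF-kB core 159 bases and the AP-1 site 74 bases before the start. The Cxcl9 promoter held the same kinds of match, with the response element core 175 and the NF-kB core 154 bases before the start and the AP-1 site 32 bases after it. In Cxcl1 the capitals are a pair of overlapping matches to the NF-kB core, 1 on each strand, at 71 and 69 bases before the start, and Cxcl2 and Cxcl3 held such a pair at 97 and 95 and at 73 and 71 bases. Ccl12 and Cxcr7 held none of these letters in the window. A promoter was found for 38 of the 55 entries, not including Ccl2 and Ccl7, and 8 of the 38 held an NF-kB core. Among tested genes with a promoter it was found in 2 of 8 that rose in WT (Cxcl1, Cxcl10), in 0 of 4 that fell and in 3 of 12 not called (Cxcl2, Cxcl9, Cxcr2). The response element core was found in Ccr2, Cxcl10 and Cxcl14 among the 8, and in Ccl19 and Cxcl9 among the 12. The E-box CAGCTG of muscle genes, which is not in capitals, was found in 16.3% of all promoters. Among the 8 that rose it was in Ccl12, Ccl8 and Ccl9, and it was in 0 of the 4 that fell. Among the 12 not called it was in Cx3cr1 and Cxcl9, in Cxcl9 at 81 bases before the start. A match describes the letters and is not evidence of binding.

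The ligands of the neutrophil receptor Cxcr2 were scarce. Cxcl1 went from 0.294 ± 0.105 to 1.07 ± 0.590 CPM in WT and from 0.230 ± 0.204 to 0.686 ± 0.291 CPM in dKO, and rose by 1.89 ± 0.54 and 1.62 ± 0.57 on the log2 scale (adjusted p = 0.0116 and 0.0371 by edgeR). The legs overlapped in dKO, where innervated replicate 3 had 27 counts and denervated replicate 2 also 27. By replicate number Cxcl1 was higher in the denervated leg of all 6 pairs, and with the number as a block it was called at 1.8 in WT (adjusted p = 0.000942 by edgeR) and 1.67 in dKO (adjusted p = 0.00284). In the fit without the block both calls depended on single libraries. The WT call ended without innervated replicate 1 (1.60, adjusted p = 0.0539 by edgeR) and without denervated replicate 2 (1.35, adjusted p = 0.0609). The dKO call ended without innervated replicate 1 (1.27, adjusted p = 0.129 by edgeR) or 2 (1.30, adjusted p = 0.13) and without denervated replicate 1 (1.60, adjusted p = 0.0728) or 3 (1.31, adjusted p = 0.13), while without innervated replicate 3 the rise was 2.60 (adjusted p = 0.0061). Cxcl5 had 2 to 14 counts per innervated and 10 to 47 per denervated library, with no overlap in WT and changes of 1.67 ± 0.66 in WT (adjusted p = 0.0569 by edgeR) and 1.20 ± 0.59 in dKO (adjusted p = 0.122). DESeq2 called Cxcl5 in WT (1.72, adjusted p = 0.0431), as did some of the edgeR alternatives. Cxcl2 had 0 to 13 counts, with changes of 1.33 ± 0.74 and 2.03 ± 0.93 (adjusted p = 0.172 and 0.0971 by edgeR).

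Cxcr2 itself was at 2.15 ± 0.0876 and 2.23 ± 0.110 CPM in WT and at 2.28 ± 0.437 and 2.23 ± 0.263 CPM in dKO legs, with changes of 0.05 (95% interval −0.28 to 0.39) and −0.03 (−0.36 to 0.30). Cxcr1 had at most 2 counts. Of 8 neutrophil markers 4 were tested, and their summed level was 1.10 to 1.52 CPM in WT innervated, 12.1 to 22.3 in WT denervated, 1.57 to 1.83 in dKO innervated and 23.8 to 31.8 in dKO denervated libraries. S100a8 took most of the sum in denervated legs, at 16.3 CPM in WT and 26.2 CPM in dKO, and rose by 6.95 and 7.63. S100a9, the usual partner of S100a8, was not called, at 0.97 (adjusted p = 0.116 by edgeR) and 0.69 (adjusted p = 0.258). Csf3r was not called either (0.44 and 0.47). Mmp8, with 0 to 20 counts per library, rose in WT (2.53, adjusted p = 0.0261 by edgeR) and was not called in dKO (0.92, adjusted p = 0.371) or in the interaction (−1.61, adjusted p = 1.00). The defining marker Ly6g had 0 counts in every denervated library, and Camp, Stfa2l1 and Retnlg had too few counts to be tested.

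Cxcr6, the receptor of Cxcl16 on T cells and other lymphocytes, went from 0.0344 ± 0.0178 to 0.505 ± 0.122 CPM in WT and from 0.146 ± 0.127 to 0.400 ± 0.286 CPM in dKO. The WT legs did not overlap, with 4, 1 and 2 counts in innervated and 35, 39 and 52 in denervated libraries. Cxcr6 rose by 3.74 ± 0.79 in WT (adjusted p = 0.00176 by edgeR). In dKO the legs overlapped, with 1, 18 and 9 counts in innervated and 24, 11 and 55 in denervated libraries, and the change was 1.45 ± 0.64 (adjusted p = 0.0842 by edgeR). Without dKO innervated replicate 2 it was 2.28 (adjusted p = 0.0336) and without denervated replicate 2 it was 1.85 (adjusted p = 0.0319). Its ligand Cxcl16 was at 2.38 ± 0.0697 and 2.42 ± 0.374 CPM in WT legs, with changes of 0.02 ± 0.17 in WT and −0.16 ± 0.17 in dKO (adjusted p = 0.927 and 0.475 by edgeR). The 8 markers of T and NK cells summed to 1.38 to 1.92 CPM in WT innervated, 1.39 to 2.09 in WT denervated, 1.38 to 2.11 in dKO innervated and 1.68 to 2.30 in dKO denervated libraries, and none of the 5 tested was called. Cd3e, the defining marker, was at 0.0106 to 0.0234 CPM in group means.

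Cxcl14 rose from a high level. It had 2587, 1559 and 2033 counts in WT innervated and 4361, 3817 and 3399 counts in WT denervated libraries. dKO muscle gave 2339, 1961 and 1750 counts in innervated and 3935, 3574 and 3397 counts in denervated libraries. In CPM every denervated library lay above the innervated ones, and Cxcl14 rose by 0.55 ± 0.14 in WT (adjusted p = 0.00493 by edgeR) and by 0.65 ± 0.14 in dKO (adjusted p = 0.00172).

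Among abundant genes, Cxcl12 and its scavenging receptor Cxcr7 fell in both genotypes. Cxcl12 had 8210, 5692 and 6638 counts in WT innervated and 6080, 7230 and 5728 counts in WT denervated libraries. In dKO it had 6400, 6157 and 5612 counts in innervated and 5031, 4831 and 5156 counts in denervated libraries. In CPM, which allows for depth and the TMM factor, WT went from 106 ± 3.21 to 75.7 ± 4.84 and dKO from 94.8 ± 2.75 to 68.1 ± 1.18, with no overlap. Cxcl12 fell by 0.49 ± 0.07 in WT (adjusted p = 6.93e-05 by edgeR) and by 0.48 ± 0.07 in dKO (adjusted p = 8.44e-05).

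Cxcr7, which takes up and degrades Cxcl12, had 1441, 1001 and 1256 counts in WT innervated and 576, 806 and 828 counts in WT denervated libraries. The dKO libraries held 1147, 1107 and 977 counts in innervated and 944, 662 and 683 counts in denervated libraries. The legs did not overlap in CPM, and dKO denervated replicate 1, at 13 CPM, was nearest to the innervated level. Cxcr7 fell by 1.12 ± 0.14 in WT (adjusted p = 2.85e-05 by edgeR) and by 0.70 ± 0.14 in dKO (adjusted p = 0.00126). Cxcr4, the signalling receptor of Cxcl12, was at 3.35 ± 0.418 and 3.77 ± 1.09 CPM in WT legs, with changes of 0.17 ± 0.20 in WT and 0.15 ± 0.20 in dKO (adjusted p = 0.534 and 0.604 by edgeR).

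Markers of endothelial cells and fibroblasts, which make Cxcl12, were measured beside these genes. The 5 endothelial markers summed to 452 to 507 CPM in WT innervated, 333 to 413 in WT denervated, 402 to 482 in dKO innervated and 333 to 358 in dKO denervated libraries, with Kdr (−1.05 and −1.03) and Cdh5 (−0.39 and −0.42) fallen and Pecam1, Tek and Vwf not called (−0.06, 0.03 and −0.16 in WT). The 5 fibroblast markers summed to 3607 to 5349, 2000 to 3411, 3274 to 5230 and 2145 to 2448 CPM in the same order, with Col1a1 (−1.12 and −1.18) and Col3a1 (−0.72 and −0.53) fallen and Pdgfra, Dcn and Lum not called (0.10, 0.01 and −0.33 in WT). None of these 10 markers was at 0, and their part in the fall of Cxcl12 and Cxcr7 was not tested.

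Ccl25, a chemokine of thymus and gut (ENSMUSG00000023235), had 157, 133 and 173 counts in WT innervated and 81, 126 and 102 counts in WT denervated libraries. In dKO it had 177, 155 and 126 counts in innervated and 96, 88 and 111 counts in denervated libraries. In CPM the legs did not overlap, and Ccl25 fell by 0.98 ± 0.15 in WT (adjusted p = 0.00018 by edgeR) and by 0.83 ± 0.15 in dKO (adjusted p = 0.000685). Exons of Elavl1 overlap it on the other strand, and Elavl1 was not called, at 0.06 and 0.05. The second Ccl25 entry (ENSMUSG00000055951) had at most 4 counts, and its receptor Ccr9 at most 7.

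Ccl27a, a chemokine of skin, had 148, 123 and 135 counts in WT innervated and 105, 120 and 88 counts in WT denervated libraries. dKO libraries had 90, 93 and 75 counts in innervated and 52, 57 and 61 counts in denervated libraries. In CPM the 4 groups were apart, at 2.12 ± 0.136, 1.25 ± 0.152, 1.34 ± 0.0473 and 0.771 ± 0.0476, except that both middle groups overlapped. Ccl27a fell by 0.76 ± 0.14 in WT (adjusted p = 0.000754 by edgeR) and by 0.80 ± 0.15 in dKO (adjusted p = 0.000882). Its reads are uncertain, because Gm20878 is a near-identical copy and exons of Il11ra1 overlap it on the other strand. Il11ra1 was at −0.28 in WT (adjusted p = 0.063 by edgeR) and fell by 0.30 in dKO.

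The CX3C pair, fractalkine (Cx3cl1) and its receptor on monocytes (Cx3cr1), was not called. Cx3cl1 was at 2.79 ± 0.557 and 3.87 ± 0.533 CPM in WT and at 2.65 ± 0.930 and 3.63 ± 1.04 CPM in dKO legs, with changes of 0.48 ± 0.25 and 0.45 ± 0.25 (adjusted p = 0.145 and 0.171 by edgeR). With replicate number as a block, Cx3cl1 was called in WT (0.48, adjusted p = 0.0129 by edgeR) and in dKO (0.47, adjusted p = 0.0160), and it was higher in the denervated leg of all 6 pairs. Without dKO innervated replicate 1 its change in dKO was 0.78 and was called (adjusted p = 0.0224 by edgeR). Cx3cr1 was at 1.45 ± 0.341 and 2.05 ± 0.517 CPM in WT and at 1.85 ± 0.279 and 2.10 ± 0.496 CPM in dKO, with changes of 0.51 ± 0.24 and 0.19 ± 0.24 (adjusted p = 0.104 and 0.557), and was called in WT with the block (0.50, adjusted p = 0.0186).

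The remaining tested genes had low counts. Ccl22 and Ccl17, ligands of Ccr4 made by dendritic cells, had 2 to 69 and 0 to 20 counts per library. For Ccl22 the log2 difference between legs was 1.99 ± 0.86 in WT (adjusted p = 0.0797 by edgeR, and 0.0124 with the block), 0.66 without WT denervated replicate 2, and −0.98 ± 0.80 in dKO (adjusted p = 0.354). For Ccl17 it was 1.76 ± 1.19 and −2.07 ± 0.97 (adjusted p = 0.261 and 0.105 by edgeR). Without dKO innervated replicate 1 the Ccl17 change in dKO was −2.59 and was called (adjusted p = 0.0349 by edgeR). Of 5 dendritic-cell markers, Itgax (1.00) and Flt3 (0.84) rose in WT and Cd209a (−0.90) fell in dKO, and their sum was 17.7 to 20.2 CPM in WT innervated, 15.7 to 21.2 in WT denervated, 17.5 to 18 in dKO innervated and 14.4 to 19.5 in dKO denervated libraries. Ccl19 had 4 to 14 counts and a near-identical copy, Gm2564, and Ccr7, its receptor, 3 to 19 counts, with no call for either. The untested entries were Ccl1, Ccl3, Ccl4, Ccl5, Ccl20, Ccl26, Ccl27b, the pseudogene Ccl19-ps1, the second Ccl25, Ccr1l1, Ccr3, Ccr4, Ccr6, Ccr8, Ccr9, Ccr10, Cxcl3, Cxcl13, Cxcl15, Cxcl17, Cxcr1 and Cxcr5. Of these, Ccr3, Ccl5, Cxcl15 and Ccl4 reached 10 counts in a library.

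Between genotypes none of the 33 genes was called. In innervated legs 0 of 33 passed edgeR's adjusted threshold, against 0.459% of all genes tested, while 9 had an unadjusted p below 0.05 (10.5% of all genes) and in 9 the genotypes did not overlap (17.1% of all genes). DESeq2 called 1, against 1.65% of all genes, and edgeR with a replicate block 0, against 0.477%. In denervated legs 0 of 33 passed, against 0.36% of all genes, with 2 at an unadjusted p below 0.05 (9.78% of all genes) and 4 without overlap (14% of all genes). DESeq2 called 1, against 1.95% of all genes, and the block 0, against 0.506%. The medians of the 33 were 0.30 in innervated and 0.04 in denervated legs, beside 0.0056 and −0.0028 over all genes.

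Ccl27a was nearest to a call in both legs. It was lower in dKO by −0.66 (95% interval −0.97 to −0.34, adjusted p = 0.0755 by edgeR) in innervated and by −0.69 (−1.01 to −0.37, adjusted p = 0.0774) in denervated legs, with no overlap in either. It was the gene that DESeq2 called, at −0.66 (adjusted p = 0.0248) and −0.67 (adjusted p = 0.0361). In innervated legs Ccl6 was at 4.38 ± 0.455 CPM in WT and 7.14 ± 1.14 CPM in dKO, Ccr2 at 5.66 ± 0.671 and 9.60 ± 2.07 CPM, and Ccl9 at 3.94 ± 0.740 and 5.93 ± 0.354 CPM. The genotypes did not overlap for these 3 myeloid genes, and the differences of 0.70, 0.76 and 0.59 had adjusted p = 0.269, 0.341 and 0.33 by edgeR. In denervated legs their differences were −0.06, 0.05 and 0.04. Macrophage marker sums overlapped between the genotypes of innervated legs, at 126 to 149 CPM in WT and 144 to 163 CPM in dKO, and their part was not tested.

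Cxcl10 had the largest difference of the well-measured genes in innervated legs, 2.77 (95% interval 0.82 to 4.72, adjusted p = 0.282 by edgeR), with overlapping groups. Its innervated libraries held 1 to 71 counts, and without dKO innervated replicate 1, the library with 71, the difference was 1.22 (adjusted p = 0.768 by edgeR), while without WT innervated replicate 3 it was 4.24 (adjusted p = 0.319). The intervals were narrow for abundant genes, at −0.31 to −0.02 for Cxcl12 (difference −0.16, adjusted p = 0.403), −0.31 to 0.28 for Cxcl14 and −0.48 to 0.11 for Cxcr7 in innervated legs.

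**Figure D5:**
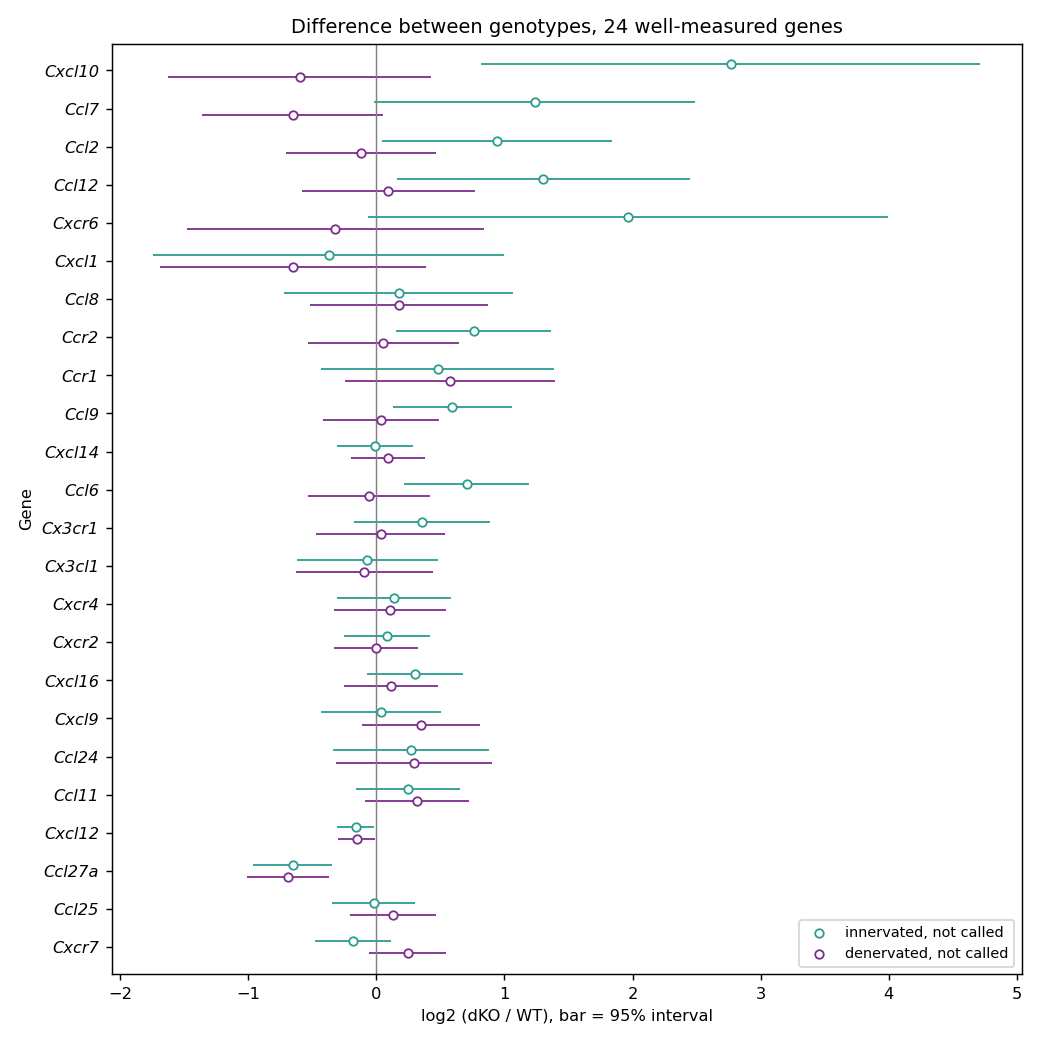
Log2 difference of dKO over WT for 24 well-measured genes with 95% intervals, green for innervated and purple for denervated legs, all open since none was called. Ccl27a is the gene with both intervals furthest below 0 (−0.97 to −0.34 and −1.01 to −0.37), and the innervated intervals of Cxcr6, Cxcl10 and Cxcl1 are the widest.

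The difference between the responses of the genotypes was called for 0 of the 33 genes, as for 0% of all genes tested by edgeR, and 6 of the 33 had an unadjusted p below 0.05 (2.17% of all genes). DESeq2 and the block called 0. The 6 were Cxcl10 (−3.37 ± 1.02), Ccl7 (−1.89 ± 0.66), Ccl22 (−2.97 ± 1.18), Ccl17 (−3.83 ± 1.53), Ccl6 (−0.76 ± 0.32) and Cxcr7 (0.43 ± 0.19), where a negative value is a lower log2 change in dKO, and all had adjusted p of 1.00. The Cxcl10 value rests on dKO innervated replicate 1 and was −1.82 without it, and without WT innervated replicate 3 it was −4.84. The Ccl22 value was −1.62 without WT denervated replicate 2, and that of Ccl17 was −2.03 without it. Of the 7 genes that rose in both genotypes, 5 had the larger log2 rise in WT, and the matching share over all genes was not counted. Ccl7, Ccl12 and Cxcl10, among the 5, had 1 to 13 counts in WT innervated libraries, so the count of 5 shows no difference by itself. That Cxcr6, Ccl9, Ccr2 and Cxcl11 were called in WT and not in dKO does not by itself show a difference between genotypes. Their interaction values were −2.29, −0.56, −0.71 and −0.04 with no call. A difference was neither shown nor excluded, as the 95% interval for Cxcr6 ran from −4.63 to 0.06.

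Genes that act with the chemokines were counted from lists. Of all genes tested, 23.1% rose and 21% fell in WT, and 21.9% rose and 20.2% fell in dKO. Of 25 tested genes of NF-kB signalling and inflammatory cytokines, which induce chemokine genes, 22 rose and 1 fell in WT and 20 rose and 1 fell in dKO, with medians of 0.87 and 0.93. The largest were Tlr4, the endotoxin receptor (2.34 and 2.36), and the NF-kB subunits Nfkb2 (2.29 and 2.45) and Relb (2.26 and 2.37). The 1 that fell was Tnfaip3, an inhibitor of NF-kB (−0.77 and −1.10), named after its values were seen. Of 20 tested genes of interferon and JAK-STAT signalling, 3 rose and 3 fell in each genotype, with medians of 0.01 and −0.26, and the largest were Irf5 (−2.25 and −2.20), Socs1, a brake on cytokine signalling (−1.59, and −0.58 with no call in dKO), and Stat3 (0.82 and 0.85).

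Of 24 genes of receptor signalling, 4 rose and 2 fell in WT and 3 rose and 4 fell in dKO, led in WT by Vav1 (0.82), Arrb1, an arrestin that ends receptor signalling (−0.67), and Dock2 (0.52). Of 19 genes of leukocyte adhesion, 4 rose and 4 fell in WT and 3 rose and 4 fell in dKO, led by the endothelial selectin Sele (1.99 and 1.22), Itga4 (−0.73 and −1.14) and Itgam (0.70 in WT). Of 12 tested atypical receptors and other genes of the system, 0 rose and 4 fell in WT and 0 rose and 3 fell in dKO. The chemokine scavenger Ccbp2 (−1.08 and −0.61) and the chemokine-cleaving protease Dpp4 (−0.94 and −0.47) fell in both, and Ccrl1 (−0.97), whose symbol has 2 gene IDs of which 1 was tested, in WT. No gene of these 5 lists was called between genotypes or in the interaction. Their medians over genes stand beside −0.0028 in WT and −0.026 in dKO for all genes. Their calls stand beside 23.1% of all genes up and 21% down in WT, and 21.9% up and 20.2% down in dKO.

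Other cell markers were read the same way. None of the tested B-cell (2 of 4) and platelet (3 of 4) markers was called. The mast-cell marker Cpa3 fell (−0.55 and −0.58), 1 of 4. Among 4 lymphatic markers Pdpn (2.73 and 2.56) and Prox1 (0.88 and 0.94) rose and Flt4 (−0.77 and −0.44) fell. Of 4 Schwann-cell markers 1 rose and 2 fell in WT and 2 rose and 2 fell in dKO, among them S100b (−1.46 and −1.39) and, in dKO, Sox10 (0.74). The satellite-cell gene Myf5 rose in WT (0.75), 1 of 3. Of the 5 fibre markers Ttn (−0.62 and −0.53) and Mb (−0.46 and −0.50) fell in both and Acta1 (−0.60) in WT.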

How the data were processed

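Total RNA of the 12 muscles was sequenced after ribosomal RNA removal with a stranded kit, per the labels' protocols. Per the submitters' processing notes, the tools were bcl2fastq 2.17.1.14, TopHat2 2.0.14, Bowtie and HTSeq 0.6.1, with the mm9 genome. For the annotation release, the strand setting of the counting and read filters, the entry is not given in the sources used here. Deposited by the authors were raw counts per gene, on which all tests rest, and a normalized signal per kb of gene length, used here only to compare levels between genes. Another 12 per-sample columns of normalized values were not used.

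Counts were scaled by TMM and tested with edgeR 4.0.16 (limma 3.58.1, R 4.3.3) in 1 quasi-likelihood fit of the 4 group means with 8 residual degrees of freedom, after edgeR's expression filter with a count minimum of 10, which kept 17201 of 31057 genes. The 5 contrasts were denervation in each genotype, genotype in each leg and their interaction, each with Benjamini-Hochberg adjustment over all genes tested. The procedure was tested on simulated data. Alternatives were median-of-ratios and upper-quartile scaling, no filter, DESeq2 1.42.0, a replicate block, only the 2 groups compared, and leaving out each library or both libraries set apart earlier. TMM factors were 0.886 to 0.981 in innervated and 1.03 to 1.11 in denervated libraries. Together with totals of 55668606 to 87753152 counts, they put 3 counts at 0.0315 to 0.0549 CPM. Libraries of a group differed by more than sampling noise, with a chi-square per gene of 31.5 to 133, so each counted as 1 sample.

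Replicate numbers come from the sample titles. Deviations from group means, over 12706 genes averaging 1 CPM or more, correlated at 0.21 to 0.534 between the legs of the same genotype and number. Between different numbers they correlated at −0.411 to 0.0918. The numbers were taken to pair the legs only in the replicate-block alternative and in changes given by replicate number. The main fit had no block, so its p-values do not use this pairing.

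The genes and lists were chosen with earlier results of these data known. All genes of the family enter the counts, and 1 of them and some list genes that the naming rule selects are not reported here. Counts of all libraries are given for well-measured genes called with a mean of at least 2 CPM in any group, and group means or count ranges for the others. From each list (inducers, interferon signalling, receptor signalling, adhesion, atypical receptors, and markers of 13 cell types) up to 3 called genes of largest change in WT denervation are named, and any further list gene was named after its values were seen. Coordinates and overlaps are from GENCODE M21 (GRCm38), matched by gene ID for 53 of 55 entries, copies from BLAST 2.17.0 and promoters from RefSeq (GRCm38.p6).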

Additional observations from a re-analysis of the deposited data

Results flagged for a closer look

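Ccl22, a Ccr4 ligand with low counts, was singled out because its change after denervation went one way in all WT pairs and the other way in all dKO pairs. By replicate number, with a small constant added to each CPM value, the log2 change was 0.89, 2.28 and 0.34 in WT and −1.13, −0.72 and −0.74 in dKO. At counts as low as 2 and 7, in WT replicate 1, the size depends on that constant. The interaction was −2.97 (unadjusted p = 0.0258, adjusted p = 1.00 by edgeR), which fails the correction over all genes. It was −1.62 without WT denervated replicate 2, the library with 69 counts where the other 11 libraries had 2 to 31.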

How the results depend on the processing

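Of 27 calls of single genes, 21 held in all 19 alternatives and 0 reversed. The other calls included those of Ccl9, Ccr2 and Cxcl11 in WT and of Cxcl1 in both genotypes, with the values given above, and the cause was not tested. The number called after denervation was 16 in WT and 11 in dKO. Leaving out 1 library gave 11 to 18 in WT, with 11 (7 up and 4 down) without WT denervated replicate 2, and 10 to 14 in dKO. Leaving out both libraries set apart earlier gave 12 and 12, no filter 21 and 15, and DESeq2 17 and 11. The replicate block gave 18 and 12: it added Ccl22, Cx3cl1 and Cx3cr1 in WT and Cx3cl1 in dKO, ended Ccr2 in WT and changed no other call. Between genotypes in innervated legs, where 0 were called, no filter gave 3 (Ccl6 0.70, Ccr2 0.75 and Cxcl10 2.76, all higher in dKO) and DESeq2 gave 1 (Ccl27a −0.66). In denervated legs DESeq2 gave 1 (Ccl27a −0.67). For the interaction no filter gave 1 (Cxcl10 −3.36, adjusted p = 0.0176 by edgeR). The class of well-measured genes held 25 entries, 30 with a limit of 10 counts and 19 with 100. Depth limits the 22 untested entries. With no filter 1 of them was called, the second Ccl25 entry (0 to 4 counts per library), lower after denervation in WT with an adjusted p of 0.0465 by edgeR.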
